A study of Mus musculus with 12 samples.

Results

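The miRNAs described here are the 3 mature strands mmu-miR-31-5p, mmu-miR-31-3p and mmu-miR-489-3p, chosen by name from 1900 mature miRNAs in the table because they are known from quiescent muscle stem cells. They were measured by small RNA sequencing of whole gastrocnemius, the large calf muscle, from male C57BL/6 mice aged 6 months (young, n = 6) or 24 months (aged, n = 6), with 1 library per animal and no treatment named in the labels. All 3 had a read in at least 1 library, and 2 of the 3 (miR-31-5p and miR-489-3p) were above 0 in at least 5 of the 12 libraries and could be tested with the 482 miRNAs that passed this filter. Each was rare. Over all 12 libraries miR-31-5p had 11 reads in young and 20 in aged muscle, miR-489-3p had 9 and 2, and miR-31-3p had 0 and 1.

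Satellite cells are the stem cells of skeletal muscle. They lie between the fibre and its sheath, rest in a quiescent state in uninjured muscle, and divide and fuse into fibres after injury. A miRNA acts by pairing its seed, bases 2 to 8 from its 5′ end, with messenger RNAs, which lowers their translation or stability. miR-489 is known to hold satellite cells quiescent by repressing Dek, an oncogene product that promotes their division, and miR-31 is known to keep the messenger RNA of Myf5, a transcription factor of myogenic commitment, from being translated in quiescent cells. miR-489 lies in an intron of Calcr, the calcitonin receptor gene, itself a marker of quiescent satellite cells.

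The mature strands are printed because the seed decides which other miRNAs can share their targets. The sequences are from RefSeq (GRCm38.p6, the assembly of the mm10 build used by the authors), where all 3 names matched, and capitals mark the seed.
mmu-miR-31-5p: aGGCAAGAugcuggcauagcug
mmu-miR-31-3p: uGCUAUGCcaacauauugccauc
mmu-miR-489-3p: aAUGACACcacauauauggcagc
mmu-miR-425-5p: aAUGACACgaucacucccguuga
mmu-miR-653-5p: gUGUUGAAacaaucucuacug
The seeds of both miR-31 strands were found in no other mature mouse miRNA of that table. The seed of miR-489-3p was shared with 1 other miRNA, miR-425-5p, whose remaining bases differ. The strand miR-653-5p is shown because its hairpin is the neighbour of miR-489 in the same intron, and its seed is its own.

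The hairpin precursors show where both arms lie, with the mature 5p and 3p strands in capitals.
Mir31: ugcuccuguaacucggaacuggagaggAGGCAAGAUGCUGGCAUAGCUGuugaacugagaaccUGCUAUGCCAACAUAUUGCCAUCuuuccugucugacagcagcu
Mir489: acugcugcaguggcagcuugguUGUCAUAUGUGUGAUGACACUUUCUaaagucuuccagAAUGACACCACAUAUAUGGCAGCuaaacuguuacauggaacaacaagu
Mir31 lies on the minus strand at chr4:88910557-88910662 (mm10), overlapping an exon of the long noncoding RNA gene AL805899.1 on the same strand (GENCODE M21). Mir489 lies on the minus strand at chr6:3721897-3722003. It is spanned by all 5 annotated transcripts of Calcr, read from the same strand, and overlaps an exon in 0 of them, so it is intronic. The Mir653 hairpin, at chr6:3721301-3721385, is 511 bases from it in the same intronic region.

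The 3′ untranslated regions of the 2 known targets were searched on the sense strand for the 7 letters that pair with the seed. Capitals mark the match.
Myf5 and miR-31-5p: cggttgtaaatactgTCTTGCCac
Dek and miR-489-3p, first site: tgctttgccctcaaaGTGTCATca
Dek and miR-489-3p, second site: ttgtgttaactctaaGTGTCATag
Myf5 (chromosome 10, 107482908 to 107486134, minus strand) held TCTTGCC once, at bases 117 to 123 of the 1112 bases after the stop codon in transcript Myf5-201. Of 9536 genes with a 3′ untranslated region of at least that length, 9.51% held the same letters in the first 1112 bases. Dek (chromosome 13, 47084775 to 47106201, minus strand) held GTGTCAT at 2 places, bases 704 to 710 and 734 to 740 of 1286 in Dek-201, and 8.05% of 8518 windows of that length held it at least once. A match of letters describes the sequence and is no measurement of pairing in these muscles. Because miR-425-5p has the seed of miR-489-3p, the same Dek letters match it too.

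The values were deposited as log2 of FPKM (a read number divided by both the kilobases of mature sequence and the library's mapped total), with 0 for no read, and reads were recovered from the steps of the lowest values. Libraries differed widely in depth. The young libraries held an estimated 212196 to 6526695 mapped reads and the aged ones 120437 to 7761592, and 1 read of a miRNA of 22 bases was worth from 5.86 FPKM in aged replicate 3 to 377 FPKM in aged replicate 5. Young replicate 6 and aged replicate 3 stood apart as the deepest. They held 9 and 7 reads of miR-31-5p, and 6 and 1 of miR-489-3p, and so weigh most in pooled reads. Means of FPKM and the test across all miRNAs weigh every library alike, whatever its depth. Markers of the tissue label were present. The muscle fibre miRNAs miR-1a-3p, miR-133a-3p and miR-206-3p were read in all 12 libraries, with a summed level of 4544000 to 7317000 FPKM in young and 4449000 to 5287000 FPKM in aged muscle. This sum was mostly miR-133a-3p, and the smooth muscle miRNAs given further below summed to a like level. Satellite cells are a small share of such tissue, and in whole muscle fewer cells of a type and less RNA per cell cannot be told apart.

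Of the pair of miRNAs tested, miR-489-3p was the one with more reads in young muscle. Young replicates 1, 2 and 3 had 1 read each, young replicates 4 and 5 had 0, and young replicate 6 had 6. Aged replicates 1 and 3 had 1 read each, and aged replicates 2, 4, 5 and 6 had 0. A read was therefore found in 4 of 6 young and 2 of 6 aged libraries, although the aged libraries held more reads in all, 13470682 against 8549816.

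Expressed as FPKM, miR-489-3p was at 71.0, 93.05, 145 and 39.95 in young replicates 1, 2, 3 and 6, and at 26.0 and 5.58 in aged replicates 1 and 3. Its mean was 58.2 ± 56.6 FPKM (SD, n = 6) in the young group against 5.26 ± 10.4 FPKM (SD, n = 6) in the aged group. Without aged replicate 1 the aged mean was 1.12 ± 2.50 FPKM (SD, n = 5). Each young library with a read lay above every aged library, but the groups overlapped at 0. Young replicates 1, 2 and 3 and aged replicates 1 and 3 had 1 read each, so their order follows depth. That read was 1 of 298614 to 609777 mapped reads in these young libraries, and of 1665959 and 7761592 in these aged ones.

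With the reads of each age pooled, miR-489-3p was at 1.05 RPM (reads for every 1000000 mapped reads) in young (95% exact Poisson interval 0.481 to 2.00) and at 0.149 in aged muscle (0.018 to 0.536). The aged rate was 0.141 times the young rate (95% exact interval 0.0148 to 0.681). These intervals cover counting error only, not the spread between animals. The ratio was 0.140 (0.00305 to 1.16) in the 2 deepest libraries alone, with 6 reads against 1, and 0.118 (0.00225 to 1.47) in the other 10, with 3 against 1. Both subsets gave a ratio close to the pooled one, and in neither did the interval exclude equal rates. Left out in turn, aged replicate 3 moved the ratio to 0.166 with an interval from 0.0038 to 1.20, and aged replicate 1 moved it to 0.0805 (0.00184 to 0.581).

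**Figure D1:**
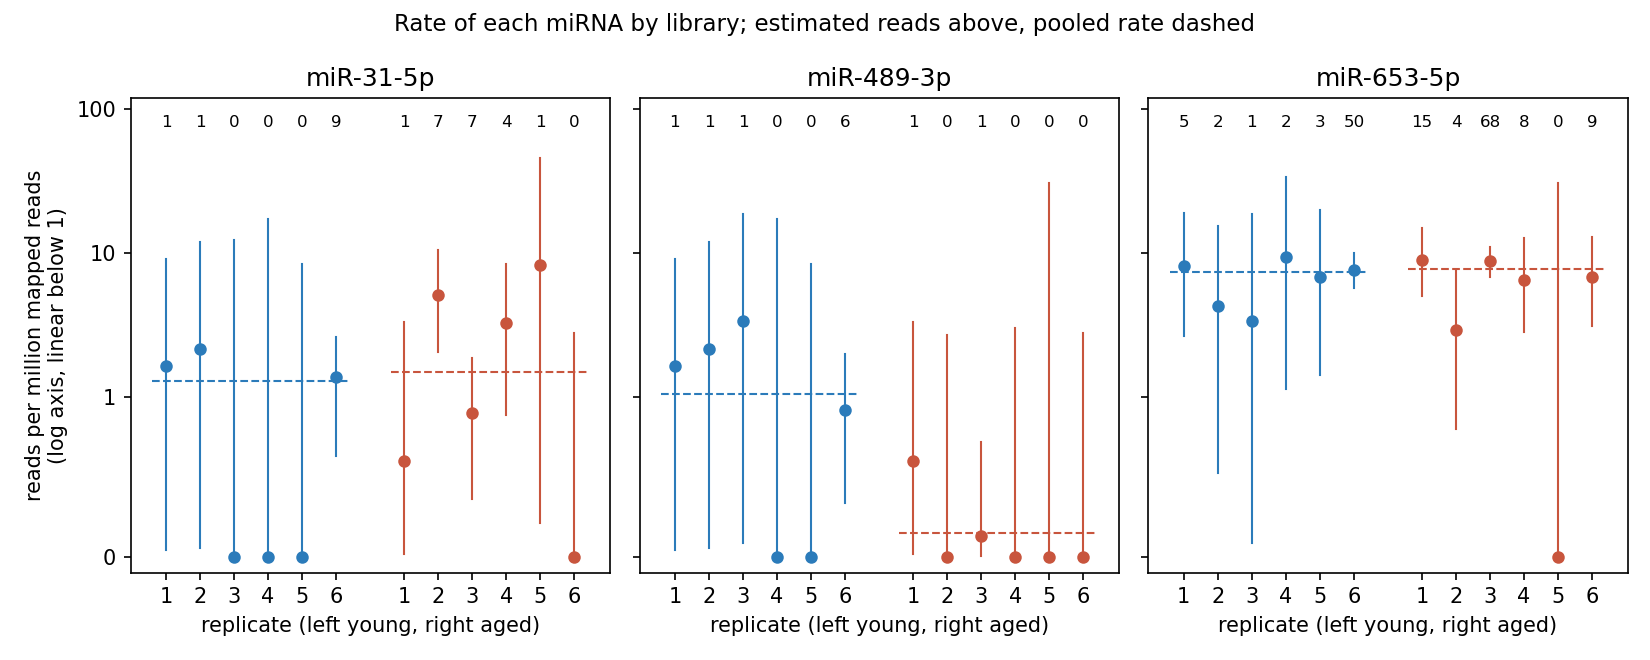
Rate in RPM (y axis, log scale that is linear below 1) of miR-31-5p, miR-489-3p and miR-653-5p in each library (x axis: replicates of young, blue, and aged, red), with exact 95% Poisson intervals as vertical lines, the estimated reads printed above and the pooled rate of each age dashed. For miR-489-3p the aged dashed line (0.149) lies below the young one (1.05), while the lines of miR-653-5p (7.37 and 7.72) lie close together.

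In the test across all miRNAs, the level was log2(FPKM + 48.2), on which no read is 5.59. On this scale miR-489-3p averaged 6.55 ± 0.825 (SD, n = 6) in the young group against 5.72 ± 0.249 (SD, n = 6) in the aged group, a log2 difference (aged minus young) of -0.82 (SE 0.38, 95% interval -1.60 to -0.05). The limma p was 0.0377 before and 0.344 after Benjamini-Hochberg adjustment over 482 miRNAs, so miR-489-3p did not pass the threshold of an adjusted p under 0.05. All 6 aged libraries lay below the young median, which was 55.5 FPKM. In every aged library but aged replicate 5, 1 read of a miRNA of 22 bases was worth at most 37.0 FPKM. A single read there had to fall below that median, so this count leans on depth. An unadjusted p under 0.05 was found for 12.9% of the miRNAs tested (62 of 482), a background against which 1 of the 2 tested strands described here is no result about them. The added 48.2 FPKM shrinks differences between values as low as these. With 1 FPKM added instead, the difference was -2.97, but the limma p rose to 0.0837 before and 0.468 after adjustment.

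miR-653, the other miRNA of this Calcr intron region, is spanned by the same transcripts. miR-653-5p had 5, 2, 1, 2, 3 and 50 reads in young replicates 1 to 6 and 15, 4, 68, 8, 0 and 9 in aged replicates 1 to 6. It was read in all libraries but aged replicate 5, the shallowest. Its rate was 7.37 RPM in young and 7.72 in aged muscle, a ratio of 1.05 (95% exact interval 0.759 to 1.46). Its log2 difference on the scale of the test was -0.45 (SE 0.55, 95% interval -1.59 to 0.68, limma adjusted p = 0.783). On that scale aged replicate 5, with no read, lay at 5.59. The other aged libraries lay between 7.55 and 8.89, and the young ones between 7.70 and 8.96.

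Reads of miR-489-3p amounted to 14.3% of those of miR-653-5p in young (9 against 63) and to 1.92% in aged muscle (2 against 104). With each library left out in turn, the young share ran from 12.9% (without young replicate 3, 8 against 62) to 23.1% (without young replicate 6, 3 against 13). The aged share ran from 1.12% (without aged replicate 1, 1 against 89) to 2.78% (without aged replicate 3, 1 against 36). This pair shares a host gene, but setting it side by side by reads was chosen after seeing the data. The difference between these shares was not tested. The other arms were nearly silent. miR-489-5p had 1 read, in aged replicate 3, and miR-653-3p had none in any library, which allows up to 0.351 RPM in the pooled young libraries and 0.223 in the pooled aged ones (3 counts).

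The miRNA with the same seed, miR-425-5p, was far more abundant. It was at 1365 ± 664 FPKM (SD, n = 6) in the young group against 1228 ± 346 FPKM (SD, n = 6) in the aged group, from 324 and 396 reads, and was read in all 12 libraries. It had 36 reads for each read of miR-489-3p in young muscle and 198 in aged muscle. With each library left out in turn, the young figure ran from 22.3 (without young replicate 6) to 39.5 (without young replicate 3). The aged figure ran from 173 (without aged replicate 2) to 342 (without aged replicate 1), and it rests on 1 or 2 reads of miR-489-3p. The log2 difference of miR-425-5p between the ages was -0.03 (SE 0.33, 95% interval -0.72 to 0.67, limma adjusted p = 0.990). With reads pooled its rates were 37.9 and 29.4 RPM, a ratio of 0.776 (95% exact interval 0.668 to 0.901), or 0.888 (0.684 to 1.17) without young replicate 6, which held 257 of its 324 young reads. In whole muscle the seed AUGACAC was thus carried mostly by miR-425-5p at both ages.

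**Figure D2:**
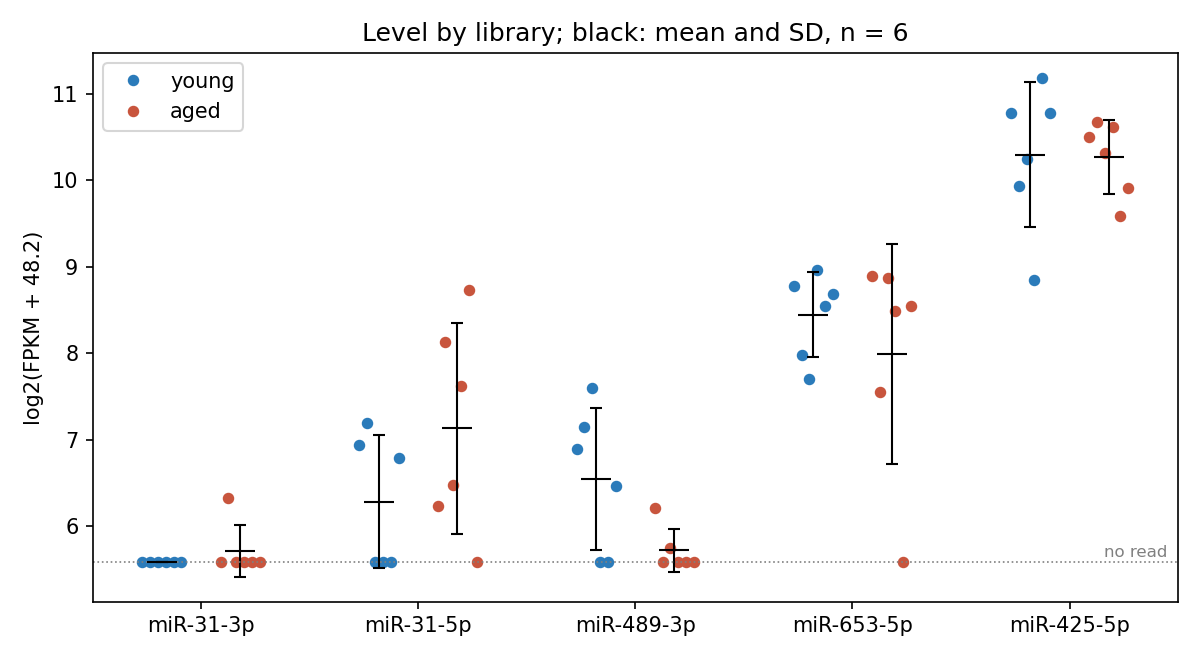
Level as log2(FPKM + 48.2) (y axis) of both miR-31 strands, miR-489-3p, its intron neighbour miR-653-5p and miR-425-5p, which has its seed, in each of 6 young (blue) and 6 aged (red) libraries. Black marks are the mean and SD, and the dotted line at 5.59 is the level of no read, on which 2 young and 4 aged values of miR-489-3p lie.

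The second miRNA, miR-31-5p, was read in 3 of 6 young and 5 of 6 aged libraries. Young replicates 1 and 2 had 1 read each, replicates 3, 4 and 5 had 0, and replicate 6 had 9. Aged replicates 1 to 6 had 1, 7, 7, 4, 1 and 0 reads. The aged libraries other than aged replicate 5 were deeper than every young library but young replicate 6.

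Its FPKM values were 74.5, 97.7 and 62.7 in young replicates 1, 2 and 6, and 27.3, 232, 41.1, 148 and 377 in aged replicates 1 to 5. The mean was 39.1 ± 44.3 FPKM (SD, n = 6) in the young group against 138 ± 146 FPKM (SD, n = 6) in the aged group. The highest value of all, 377 FPKM in aged replicate 5, was a single read in the shallowest library. Aged replicates 2, 4 and 5 lay above every young library, while the other 3 aged libraries lay within the young range of 0 to 97.7 FPKM. Without aged replicate 5 the aged mean was 89.8 ± 97.5 FPKM (SD, n = 5).

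Among the aged libraries, aged replicate 2 was at 5.11 RPM (95% exact Poisson interval 2.05 to 10.5), whereas aged replicate 3, with the same 7 reads, was at 0.902 (0.363 to 1.86). These libraries were set side by side after their values were seen, the intervals cover counting error only, and whether aged animals differed in miR-31-5p was not tested. Aged replicate 6, of nearly the depth of aged replicate 2, had no read, which allows up to 2.26 RPM (3 counts).

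With reads pooled, miR-31-5p was at 1.29 RPM in young (95% exact Poisson interval 0.642 to 2.30) and at 1.49 (0.907 to 2.29) in aged muscle, a ratio of 1.15 (95% exact interval 0.527 to 2.67). The 2 deepest libraries alone gave 0.654 (0.207 to 1.97) and the other 10 libraries 2.30 (0.522 to 21.0), so the direction depended on which libraries were counted. Without aged replicate 2 the ratio was 0.835, and without aged replicate 3 it was 1.77.

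**Figure D3:**
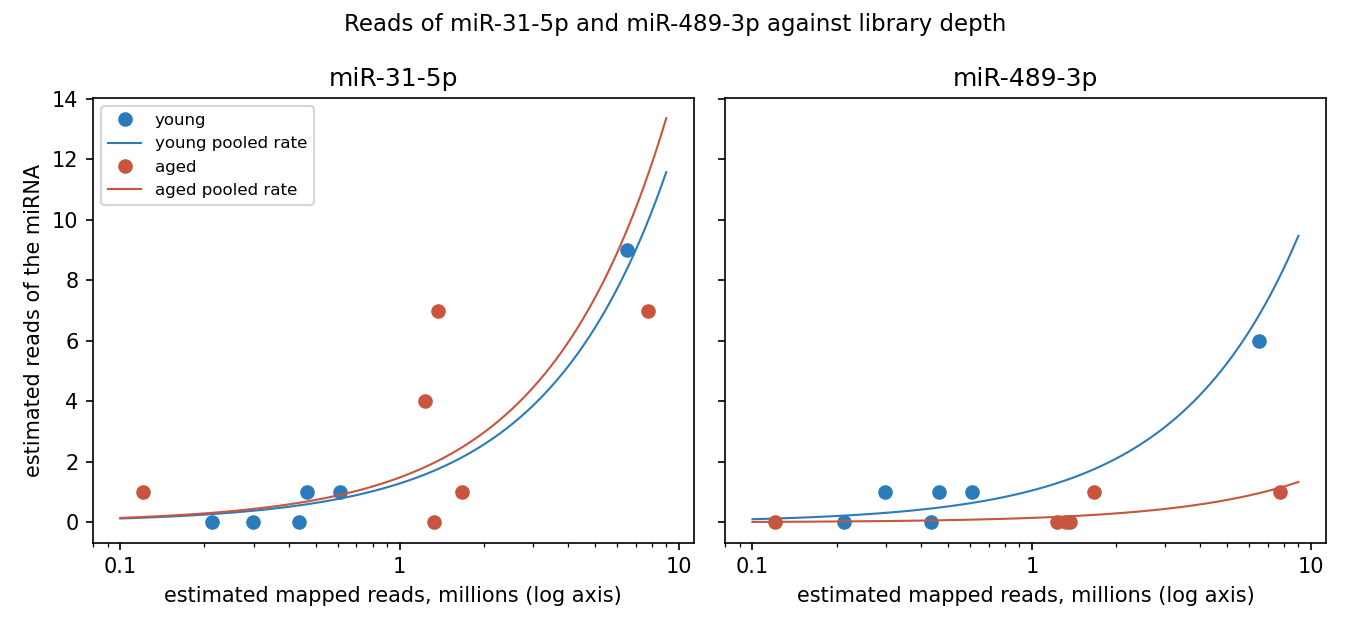
Estimated reads of miR-31-5p (left) and miR-489-3p (right; y axis) against the estimated mapped reads of each library (x axis, log scale), for young (blue) and aged (red) libraries. Curves give the reads that the pooled rate of each age yields at each depth. The curves of miR-31-5p run close together (1.29 and 1.49 RPM), while those of miR-489-3p lie apart (1.05 and 0.149).

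On the scale of the test miR-31-5p averaged 6.28 ± 0.767 (SD, n = 6) in the young group against 7.13 ± 1.22 (SD, n = 6) in the aged group. The log2 difference was 0.85 (SE 0.54, 95% interval -0.26 to 1.96, limma adjusted p = 0.501), within the spread between libraries. On this scale 5 of 6 aged libraries lay above the young median, which falls between no read and the value of young replicate 6. That count depends on the scale. In FPKM the young median was 31.3, and aged replicate 1, at 27.3, lay below it. Among all 482 miRNAs 2.9% were called at an adjusted p under 0.05 (14 miRNAs), and neither miR-31-5p nor miR-489-3p was among them. On recovered reads with limma voom, the difference of miR-31-5p was -0.24 (adjusted p = 0.905).

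miR-31 is also known from skin and other epithelia, so the epithelial miRNAs are given beside it. All 6 listed (miR-200a-3p, miR-200b-3p, miR-200c-3p, miR-141-3p, miR-203-3p and miR-205-5p) had a read somewhere, and their summed level was 458 to 1562 FPKM in young and 1136 to 2637 FPKM in aged muscle. Most of it was miR-203-3p, with 188 and 571 reads (log2 difference 0.72, SE 0.28, limma adjusted p = 0.215). miR-141-3p had 11 reads in young and 26 in aged muscle. The other 4 had from 0 to 4 reads in either age. Their part in the values of miR-31-5p was not tested.

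The passenger strand miR-31-3p had 1 read, in aged replicate 2 (31.8 FPKM), and none in the other 11 libraries. In the young pool 0 reads allow up to 0.351 RPM. It did not pass the filter and was not tested. Of the 32 reads on either arm of the miR-31 hairpin, 31 were of the 5p arm, 96.9% (95% Clopper-Pearson interval 83.8 to 99.9). In the miR-489 hairpin 11 of 12 reads were of the 3p arm, 91.7% (61.5 to 99.8). The dominant strand was thus the 5p arm of miR-31 and the 3p arm of miR-489.

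Whether both arms of miR-31 moved alike was asked of the log2 ratio of 5p to 3p, with 48.2 FPKM added to each. It was 0.691 ± 0.767 (SD, n = 6) in the young group against 1.42 ± 1.13 (SD, n = 6) in the aged group, a difference of 0.73, smaller than the SD of the aged libraries (p = 0.236 in a two-sided exact permutation test over the 12 libraries). Since the 3p arm was at 0 in 11 of 12 libraries, this ratio carries little beyond the level of the 5p arm.

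In the order of mean level, miR-489-3p ranked 368 of 723 miRNAs with a read in young muscle and 637 of 785 in aged muscle. These ranks leaned on single reads. The young rank was 406 of 716 without young replicate 3, and the aged rank was 731 of 760 without aged replicate 1. Its neighbours in young muscle were miR-29b-2-5p above, at 59.8 ± 74.0 FPKM (SD, n = 6), and miR-7a-5p below, at 57.4 ± 65.1 FPKM (SD, n = 6). miR-31-5p ranked 402 in young, between miR-1982-3p at 39.3 ± 58.6 FPKM (SD, n = 6) and let-7g-3p at 38.0 ± 43.7 FPKM (SD, n = 6), and 285 in aged muscle. The aged rank rested partly on the single read of aged replicate 5 and was 323 of 782 without that library. The passenger miR-31-3p ranked 631 in aged muscle. Every one of these neighbours differed from the miRNA beside it by far less than its SD. None of the 3 strands was above 0 in all 12 libraries, so no miRNA with a like pattern was sought, and none shared its reads with another row of the table.

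A list of 14 further miRNAs held the 3 other strands of the miR-489 and miR-653 hairpins, 4 miRNAs of quiescence and 7 of activation and differentiation. Of these 14, 13 had a read and 12 were tested, of which 1 was called higher and 1 lower in aged muscle. Over all miRNAs 0.622% were called higher and 2.28% lower. The median log2 difference was 0.10 in the list and 0.07 over all miRNAs tested, with 7 of the 12 above 0 and 5 below.

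Among the miRNAs tied to quiescence, miR-127-3p, from the imprinted cluster near Rtl1, lay between 57850 and 75280 FPKM in the young libraries (median 69840) and between 31000 and 50360 FPKM in the aged ones (median 40850). These groups did not overlap. It was lower in aged muscle by a log2 difference of -0.74 (SE 0.12, limma adjusted p = 0.000256). The paper lists it among the miRNAs of this imprinted region that fell with age. In young muscle it ranked 33 at 1338 RPM, against 1.05 RPM for miR-489-3p, and whole muscle does not tell which cells carried it. The quiescence miRNAs miR-195a-5p (0.20, adjusted p = 0.640), miR-497-5p (-0.23, adjusted p = 0.700) and miR-708-5p (0.08, adjusted p = 0.985) did not pass limma's threshold.

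Like miR-489-3p, miR-708-5p was rare, with 16 reads in young and 32 in aged muscle. Its rates were 1.87 (95% exact Poisson interval 1.07 to 3.04) and 2.38 (1.62 to 3.35) RPM. miR-195a-5p and miR-497-5p, which come from 1 cluster and repress cell cycle genes, were well read, with 1375 and 286 reads in young and 2296 and 480 in aged muscle.

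Of the miRNAs of activation and differentiation, miR-206-3p, which is raised in regenerating fibres and represses Pax7, was called. It lay between 152 and 1951 FPKM in the young libraries (median 622) and between 1278 and 2684 FPKM in the aged ones (median 1972), so the groups overlapped. Its log2 difference was 1.54 (SE 0.39, limma adjusted p = 0.0296), higher than the young median in 6 of 6 aged libraries, but the call was lost in 16 of 28 alternatives, with limma adjusted p up to 0.198. Among these were the fits without young replicate 1, 3 or 5 and without aged replicate 2, 3, 4, 5 or 6. The fibre miRNAs miR-1a-3p (0.17), miR-133a-3p (-0.17) and miR-133b-3p (-0.11), the Pax3 regulator miR-27b-3p (0.21) with its paralog miR-27a-3p (0.26), and the Pax7 regulator miR-486-5p (0.11) had limma adjusted p from 0.407 to 0.835.

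**Figure D4:**
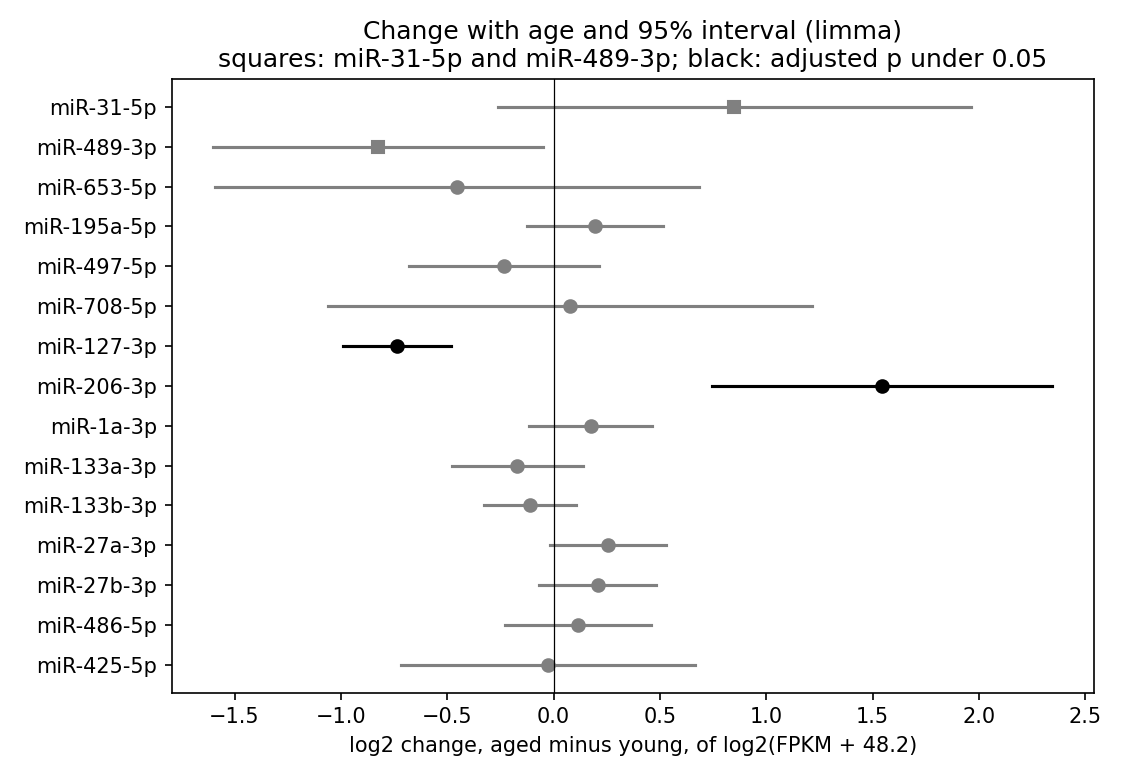
Log2 difference between aged and young muscle of log2(FPKM + 48.2) (x axis) with limma 95% intervals for miR-31-5p and miR-489-3p (squares), the tested miRNAs of the muscle stem cell and myogenic list, and miR-425-5p. Black marks have an adjusted p under 0.05 (miR-127-3p at -0.74 and miR-206-3p at 1.54), and the intervals of miR-31-5p, miR-653-5p and miR-708-5p are the widest and cover 0.

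Markers of other cells stood as follows. The endothelial strands miR-126a-3p and miR-126a-5p summed to 307700 to 455700 FPKM in young and 336500 to 382300 FPKM in aged muscle. The red blood cell miRNAs miR-451a and miR-144-3p summed to 5232 to 9366 and 2303 to 9386 FPKM, and the white blood cell miRNAs miR-223-3p and miR-142-3p to 603 to 1742 and 1201 to 2537 FPKM. The smooth muscle miRNAs miR-143-3p and miR-145a-5p summed to 3897000 to 5862000 and 4795000 to 6107000 FPKM. The red blood cell sum was mostly miR-451a and the smooth muscle sum mostly miR-143-3p. miR-144-3p differed by -0.77 (SE 0.28, limma adjusted p = 0.189) and miR-145a-5p by -0.43 (SE 0.14, limma adjusted p = 0.0976), each with 6 of 6 aged libraries below the young median. The fibre marker miR-133a-3p (-0.17, limma adjusted p = 0.679) and miR-127-3p had the same count. None of the endothelial, blood cell and smooth muscle lists had a miRNA with a limma adjusted p under 0.05. Their part in the levels of miR-31-5p and miR-489-3p was not tested.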

How the data were processed

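Small RNA of 12 gastrocnemius muscles was sequenced. The authors trimmed adaptors, mapped reads to mm10 with BWA and computed FPKM per mature miRNA of miRBase, and the deposited values are log2 of FPKM, with 0 for no read. Strand and multiple mapping rules are not given in the sources used here. Groups came from the sample titles.

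The log was undone and genomic copies were summed. FPKM times the length of the mature miRNA (RefSeq, 1603 of 1900 names matched, otherwise 22 nucleotides) gave reads and mapped reads per library, taking the commonest lowest step as 1 read. Of the 2987 recovered numbers below 25, 99.2% were whole to within 0.15. Intervals on reads are exact at 95% and, like floors of 3 counts, cover counting error only.

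Levels were log2(FPKM + 48.2), the added value being each library's lowest nonzero FPKM, taken as the median of the 12. The test was limma 3.58.1 under R 4.3.3 (lmFit, eBayes with trend, no covariate, two-sided) for miRNAs above 0 in at least 5 of 12 libraries, with Benjamini-Hochberg adjustment at 0.05. The fit was tested on simulated data, where planted changes had to be recovered only among miRNAs averaging at least 482 FPKM. The miRNAs described here averaged less, so the check does not cover them. Python 3.11.15, SciPy 1.17.1, pandas 2.3.3 and NumPy 2.4.6 were used. Coordinates and hosts are from GENCODE M21 and RefSeq GRCm38.p6. The 3′ untranslated region of each gene was that of its protein-coding transcript with the longest one.

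The miRNAs described and the lists were chosen with earlier results of these data known. Text could name them, seed partners, neighbours in level, and marker miRNAs. Alternatives were other pseudocounts, filters and scalings, a replicate block, depth as a covariate, no trend, voom, an exact permutation test, zeros kept as values, copies as separate rows and leaving out each library. Leaving out the deepest or shallowest libraries, raising low values to the worth of 1 read in the shallowest library (the floor), and the subsets of the pooled reads and of the means and ranks were chosen after seeing the data, as was setting miR-489-3p beside miR-653-5p by their reads.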

Additional observations from a re-analysis of the deposited data

Results flagged for a closer look

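Dixon's test was run on 34 groups of 6 libraries, of which chance marks about 1 in 20 (1.7 here), and 2 values lay far from the other 5. In aged replicate 2, miR-31-3p was at a log2(FPKM + 48.2) of 6.32 from its only read, while the other 5 aged libraries had no read and lay at 5.59, so that any read would have been marked. In aged replicate 1, miR-489-3p was at 6.21 from 1 read, while the other 5 aged libraries lay between 5.59 and 5.75. The other aged library with a read, aged replicate 3, was far deeper, and its 1 read was worth less.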

How the results depend on the processing

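At most 9 reads of a miRNA described here fell in 1 library, so depth limits every value. For miR-489-3p the log2 difference kept its direction without passing the threshold in all 25 alternatives that gave a value, from -3.0 to -0.14 (limma adjusted p from 0.175 to 0.560, unadjusted p from 0.0134 to 0.0887, under 0.05 in 13). For miR-31-5p it ran from -0.24 to 2.50 in 26, with 1 change of direction, to -0.24 with voom on recovered reads, for which the cause was not tested. Both miRNAs dropped out under the filter on the mean, miR-489-3p also without the 2 deepest libraries, and the floor left no difference to measure. With no filter miR-31-3p differed by 0.12 (limma adjusted p = 0.721). The arm ratio ran from 0.21 to 1.66, and 0 of its 16 alternatives passed the threshold. It gave no value from libraries with both arms alone, as there was 1. The number of miRNAs called, 14, was 6 with a pseudocount of 1 and with zeros kept as values, 7 with no filter and with the floor, 8 with the filter on the mean and with depth as a covariate, and 6 to 16 when each library was left out (6 without young replicate 3, and 7 to 9 without any 1 aged replicate). It was 0 by exact permutation (66 at an unadjusted p under 0.05), whose smallest possible p is 0.002165. Of the 14 listed miRNAs, 2 were called, and 1 with a pseudocount of 1, no filter, depth as a covariate, no trend, zeros kept as values, the floor or without the 2 deepest libraries, 0 by exact permutation, and 1 to 2 when each library was left out. miR-127-3p was called in 27 of 28 alternatives. With the replicate number as a block (replicate block), the differences were 0.85 for miR-31-5p and -0.82 for miR-489-3p, and no call of either was gained. Same-numbered libraries did not deviate together (correlations from -0.0943 to 0.0949). Counting error in the shallow libraries could hide a shared deviation, so these values cannot decide whether the numbers mark pairs or batches.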
